A study of Macaca mulatta with 10 samples.

Results

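Solute carrier (SLC) genes encode membrane proteins that move amino acids, sugars, metals, ions, lipids and vitamins across the cell surface or the membranes of organelles. The genes described here are those whose annotated symbol starts with SLC followed by a digit. They were chosen by name, without use of their measured values. Of the 13191 genes measured, 255 met this rule, read by 417 probe sets. Among them 252 symbols name a carrier of 1 of 49 numbered families, and 3 (SLC2A4RG, SLC7A6OS and SLC67A1-AS) name a regulator, an opposite-strand gene or an antisense RNA. The families were grouped into amino acid (48 genes), glucose (17), organic anion (34), inorganic ion (33), metal (20), mitochondrial (34), nucleoside and nucleotide sugar (25), vitamin, lipid and choline (26) and other families (15).

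SLC carriers either let a solute run down its gradient or couple its uphill movement to sodium, protons or an exchanged solute. Embryonic stem (ES) cells are known for rapid glycolysis and a high demand for amino acids, while hepatocytes are known for carriers that take up bile acids, organic anions, fatty acids and metals from the blood. Members of a family often share a substrate but differ in the cell types that use them, so related carriers can replace each other as cells change.

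The RNA came from ORMES6, an ES cell line of the rhesus macaque, and was read on Affymetrix rhesus arrays. The 5 groups of 2 arrays were undifferentiated ES cells, cells at in vitro differentiation stage 2 (IVDS2), the central foci (IVDS2-C) and the peripheral area (IVDS2-P) of colonies at stage 2, and cells at stage 3 (IVDS3). ES cells were kept on mouse embryonic fibroblast feeders with knockout serum replacement and bFGF, and were differentiated on hESdF, a human ES cell derivative that resembles fibroblasts, in co-culture. The same 2 protocols stand on the labels of all 10 samples, no genotype, dose or time is given, and ES cells are the named control. All groups are thus 1 cell line, and RNA from feeder or co-cultured cells was not separated from that of the macaque cells.

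The deposited values were centred on each probe set's median over the 10 arrays, so they show differences between arrays and no level of a gene in any group. Values below are log2 gene values on that centred scale, in which a step of 1 is a doubling, and differences are log2 fold changes ± standard error (SE) from limma with 2 arrays per group. A gene was called, and is said to have risen or fallen, where its two-sided p, adjusted over all genes by Benjamini-Hochberg, was under 0.05. The difference between repeats had an SD over genes' probe sets of 0.4 in ES cells and of 0.24 to 0.29 in the other groups. The labels do not say whether repeats were separate cultures, so p-values measure the spread between these samples, which may be technical, and 2 arrays per group limit the precision. In RNA from whole cultures, fewer cells of a type and less RNA per cell cannot be told apart.

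SLC genes moved in both directions in every comparison, most of all at IVDS3. Against ES cells, 67 of 255 were higher and 61 lower at IVDS3, which is 26.3% and 23.9%, beside 21.1% and 28.6% of all genes. In the colony centre 48 were higher and 34 lower (18.8% and 13.3%, beside 13.7% and 16.5% of all genes). At IVDS2 25 were higher and 14 lower (9.8% and 5.49%, beside 6.5% and 6.23%), and in the periphery 12 were higher and 15 lower (4.71% and 5.88%, beside 6.31% and 4.67%), or 12 and 9 with each array centred on its median. Between centre and periphery 22 were higher in the centre and 9 lower (8.63% and 3.53%, beside 5.64% and 3.95%). From IVDS2 to IVDS3 47 rose and 49 fell (18.4% and 19.2%, beside 17.6% and 22.2%). The shares thus ran near the background in each comparison. The median SLC gene differed from ES cells by 0.01 at IVDS2, -0.08 in the centre, -0.11 in the periphery and -0.07 at IVDS3, beside -0.04, -0.11, -0.08 and -0.13 over all genes.

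The counts of the smaller comparisons rested on few arrays. At IVDS2 the 25 higher calls became 11 without ES replicate 2 and 9 without IVDS2 replicate 2, and the 14 lower calls became 8 without ES replicate 2 and 7 without either IVDS2 array. In the centre the counts were 27 and 14 without IVDS2-C replicate 2. In the periphery the 12 higher calls ran from 2 without IVDS2-P replicate 2 and 4 without ES replicate 2 to 25 without ES replicate 1, with 7 without IVDS2-P replicate 1. The 15 lower ones there were 31 without ES replicate 1, 4 without ES replicate 2, 6 and 4 without IVDS2-P replicate 1 and 2, and 7 without either IVDS3 array. From IVDS2 to IVDS3 the 47 rises were 30 without IVDS3 replicate 2, and the 49 falls were 29 without IVDS2 replicate 2 and 27 without IVDS3 replicate 1. Calls that held with each array left out, with each array centred, with only the 4 arrays compared, in the replicate block fit, with the most variable probe set and with the robust variance prior (15 settings) numbered 83 of 128 at IVDS3, 38 of 82 in the centre, 13 of 39 at IVDS2 and 5 of 27 in the periphery. The genes described below are mostly of that kind, and exceptions are given with the array concerned. Genes named for the largest rises or falls of a comparison were required to have non-overlapping arrays in it. Where this naming rule applied, a lack of overlap adds no support to the call.

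**Figure D1:**
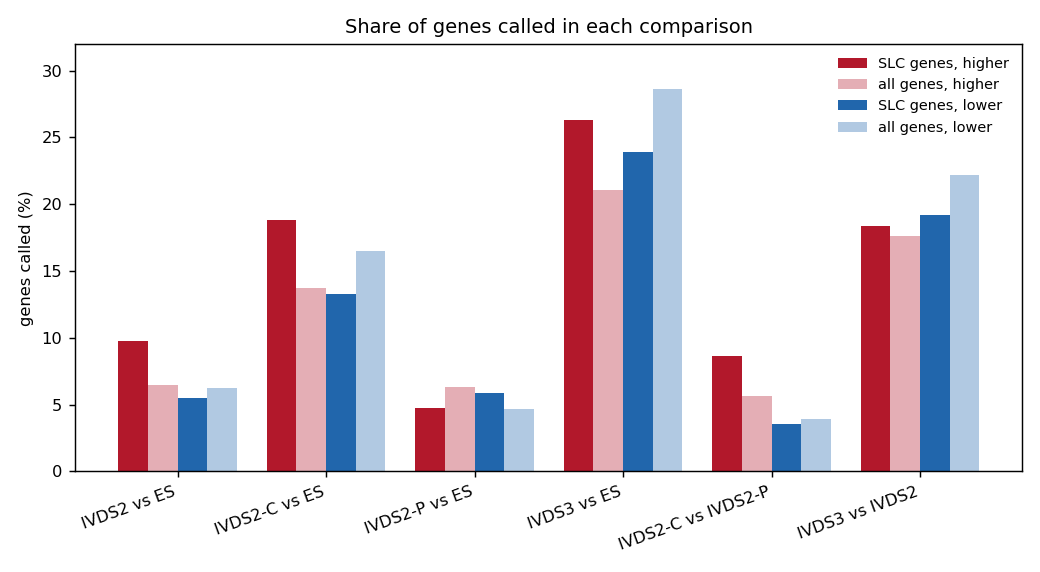
Share of SLC genes (dark bars, of 255) and of all genes (pale bars, of 13191) called higher or lower, in percent, for the 6 comparisons. The SLC shares follow those of all genes, from 4.71% higher in the periphery against ES cells to 26.3% higher at IVDS3.

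The counts by class at IVDS3, and those by family or list below, are set beside 21.1% of all genes higher and 28.6% lower. No test compared the classes, families or lists with each other or with other genes. The lists and classes were chosen with earlier results of these data known. Of the vitamin, lipid and choline carriers 11 of 26 rose and 6 fell (3 without ES replicate 2), with a median difference of 0.11. The metal carriers had 8 rises and 4 falls among 20 (median 0.08). Amino acid carriers had 12 rises and 18 falls among 48 (median -0.27), but only 10, 9 or 10 falls without ES replicate 2, IVDS3 replicate 1 or IVDS3 replicate 2. Mitochondrial carriers had 6 rises and 12 falls among 34 (median -0.19), with 2 rises without IVDS3 replicate 1. Most ion carriers did not pass the test: 5 of 33 rose and 4 fell, or 12 without ES replicate 1. The median over all genes in this comparison was -0.13.

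**Figure D2:**
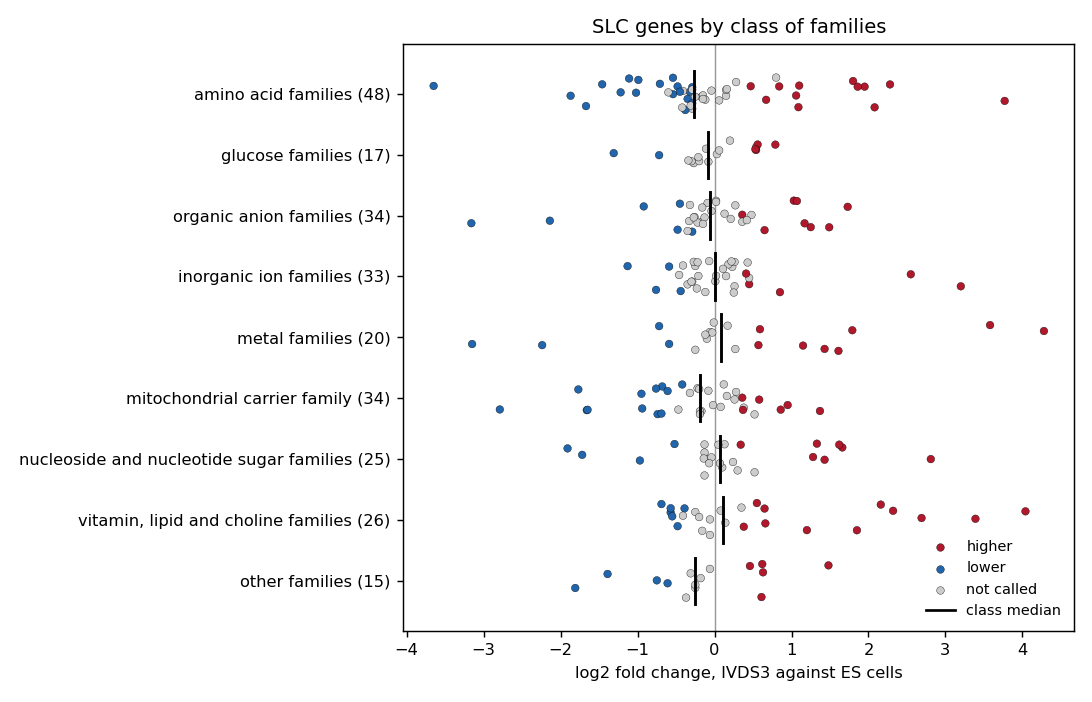
Log2 fold change of each carrier gene at IVDS3 against ES cells, by class of families with the number of genes in brackets. Each point is a gene, coloured by its call, and the bar is the class median, from -0.27 for amino acid families to 0.11 for vitamin, lipid and choline families.

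Zinc and iron carriers held some of the largest changes, and members of 1 family moved in opposite directions. SLC39A8, an importer of zinc and manganese, read -2.54 and -2.84 in ES cells, 0.57 and -0.56 at IVDS2, -1.66 and -1.14 in the periphery, 1.53 and 2.03 in the centre, and 0.75 and 1.03 at IVDS3. Its arrays in the centre were the highest and those of ES cells the lowest. No differentiated group overlapped ES cells, which the naming rule required of this gene and which adds no support. It rose by 3.58 ± 0.34 at IVDS3 (12-fold, adjusted p = 4.44e-05), by 4.47 ± 0.34 in the centre (adjusted p = 7.51e-05) and by 2.69 ± 0.34 at IVDS2 (adjusted p = 0.00151). These are means of 5 probe sets, which ran from 0.13 to 6.01 at IVDS3. With the most variable probe set in place of the mean, the differences were 6.01, 6.76 and 4.74.

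SLC39A14, an importer of zinc, iron and manganese known from the liver, went the other way. It read 1.31 and 1.67 in ES cells, -0.11 and 0.51 at IVDS2, 0.41 and 0.11 in the periphery, -0.72 and -1.10 in the centre, and -1.85 and -1.47 at IVDS3. Apart from IVDS2, which overlapped the periphery, the groups stood in this order without overlap. It fell by 3.15 ± 0.24 on the log2 scale at IVDS3 (8.85-fold, adjusted p = 1.48e-05) and by 2.40 ± 0.24 in the centre (adjusted p = 0.000237). SLC39A4, the zinc importer of the gut whose loss causes acrodermatitis enteropathica, read 1.32 and 1.11 in ES cells and -0.97 and -1.09 at IVDS3. It fell by 2.24 ± 0.20 there (adjusted p = 3.42e-05) and by 1.71 ± 0.20 in the centre (adjusted p = 0.000494).

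SLC40A1 encodes ferroportin, the iron exporter of the cell surface. It read -0.90 and -0.99 in ES cells, 0.05 and -0.13 at IVDS2, -0.21 and -0.19 in the periphery, 1.18 and 1.56 in the centre, and 2.86 and 3.82 at IVDS3. Its rise of 4.28 ± 0.27 at IVDS3 (19.5-fold, adjusted p = 4.97e-06) was the largest of any SLC gene in that comparison by the mean of probe sets. By single probe sets it was not, as SLC39A8 reached 6.01 at IVDS3 and SLC40A1 ran from 3.59 to 4.98. The copper carrier SLC31A2 (1.79 ± 0.16) and the zinc carriers SLC30A7 (1.61 ± 0.27) and SLC30A2 (1.43 ± 0.24) rose there as well (adjusted p from 3.57e-05 to 0.00112), SLC30A2 by 2.25 with its most variable probe set.

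Of 10 measured genes of iron, copper and zinc handling that are not SLC carriers, 6 rose and 2 fell at IVDS3. Over all genes 21.1% rose and 28.6% fell. Ferritin light chain FTL, which stores iron, rose by 3.05 ± 0.22 (adjusted p = 1.07e-05), and HFE, a sensor of iron in blood, by 1.58 ± 0.16 (adjusted p = 5.52e-05, 2.77 with its most variable probe set). HEPH, an oxidase that works with ferroportin, rose by 0.82 ± 0.13 (adjusted p = 0.000633). The metal-binding MT2A differed by 3.28 ± 1.09 (adjusted p = 0.0321), a call lost without ES replicate 2 (0.225), IVDS3 replicate 1 (0.0747) or IVDS3 replicate 2 (0.144), and 5.09 without ES replicate 1. The 2 falls became 1 without either ES array or IVDS3 replicate 1, and 0 without IVDS3 replicate 2, where 2 stood at an unadjusted p under 0.05 in limma.

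**Figure D3:**
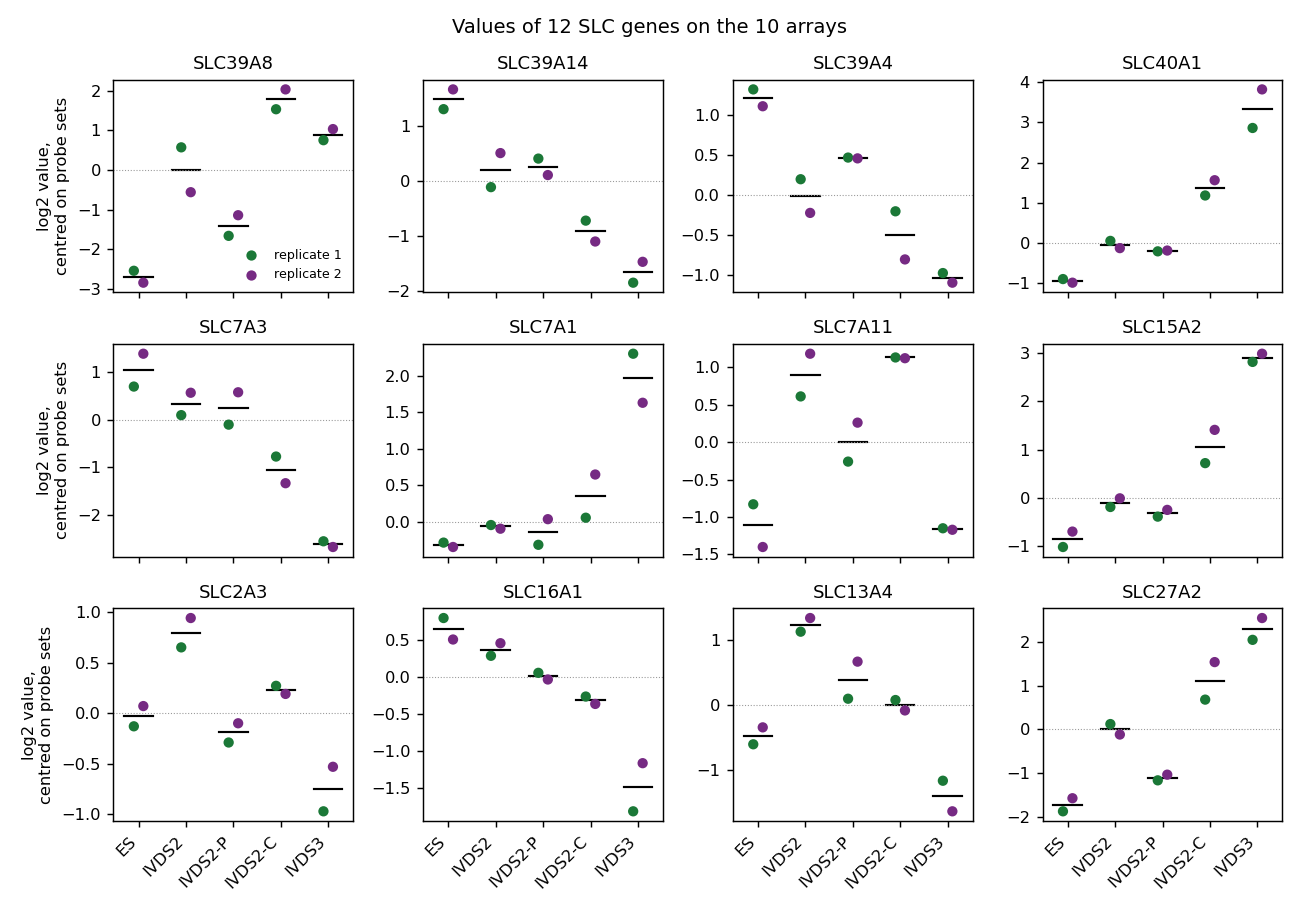
Centred log2 values of 12 SLC genes on each array, with groups on the horizontal axis, replicates 1 and 2 in colour and the group mean as a bar. SLC40A1, SLC15A2 and SLC27A2 are highest at IVDS3, SLC39A8 in the colony centre, and SLC39A14, SLC39A4, SLC7A3 and SLC16A1 in ES cells.

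Among amino acid carriers, 2 transporters of arginine and lysine moved in opposite directions at IVDS3. SLC7A3 read 0.70 and 1.39 in ES cells, 0.10 and 0.57 at IVDS2, -0.10 and 0.58 in the periphery, -0.77 and -1.33 in the centre, and -2.55 and -2.67 at IVDS3. SLC7A1, the more widely used transporter of the same amino acids, read between -0.34 and 0.65 on the 8 arrays of the other groups, and 2.30 and 1.63 at IVDS3. No array of IVDS3 overlapped any other for either gene. SLC7A3 fell by 3.65 ± 0.30 on the log2 scale (12.6-fold, adjusted p = 2.17e-05), the largest fall of any SLC gene at IVDS3, and SLC7A1 rose by 2.28 ± 0.24 (4.84-fold, adjusted p = 7.99e-05). SLC7A2, a further carrier of cationic amino acids, fell by 1.02 ± 0.23 (adjusted p = 0.00513), or by 2.41 with the most variable of its 5 probe sets.

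SLC7A11, the light chain of the cystine and glutamate exchanger that feeds glutathione synthesis, was higher at stage 2 and not at stage 3. It read -0.83 and -1.40 in ES cells, 0.61 and 1.18 at IVDS2, 1.13 and 1.12 in the centre, -0.26 and 0.26 in the periphery, and -1.15 and -1.17 at IVDS3. The IVDS3 arrays lay between those of ES cells, and the 6 arrays of stage 2 lay above both groups. It rose by 2.01 ± 0.25 at IVDS2 (adjusted p = 0.00126) and by 2.24 ± 0.25 in the centre (adjusted p = 0.000332), and then fell by 2.05 ± 0.25 from IVDS2 to IVDS3 (adjusted p = 0.000239). At IVDS3 it differed from ES cells by -0.04 ± 0.25.

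SLC7A11 belongs to a list of 7 measured carriers known to be induced by amino acid shortage through the factor ATF4. At IVDS3, 2 of them rose (SLC7A1 and SLC1A4) and 2 fell (SLC7A3 and SLC1A5), while SLC6A9 (0.16 ± 0.17) and SLC7A5 (-0.60 ± 0.24, adjusted p = 0.0642) were not called. SLC7A5, the light chain of the large neutral amino acid exchanger, was called lower in the replicate block fit (0.00807) and without ES replicate 1 (0.0196) or either IVDS2 array (0.0467). SLC1A4, a carrier of alanine, serine and cysteine, was higher by 1.80 ± 0.46 (adjusted p = 0.00994), but not past the threshold without IVDS3 replicate 1 (0.0551). The glutamine carrier SLC1A5 differed by -0.71 ± 0.22, a call lost without ES replicate 2 (0.157) or IVDS3 replicate 1 (0.144). Of 10 measured enzymes and regulators of the same response, 3 rose and 1 fell, with 1 rise without ES replicate 1 or IVDS3 replicate 1, and 2 falls in the replicate block fit or without either array of IVDS2 or IVDS2-P. Among them CEBPB rose by 1.28 ± 0.25 (adjusted p = 0.00242, 2.20 with its most variable probe set) and the serine synthesis enzyme PHGDH fell by 1.02 ± 0.20 (adjusted p = 0.00249).

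Most carriers of small peptides rose. The SLC15 family moves di- and tripeptides and histidine with protons, and 3 of its 4 measured members rose at IVDS3 while SLC15A4 fell by 0.54 ± 0.12 (adjusted p = 0.00424). SLC15A2 read -1.02 and -0.70 in ES cells, 0.72 and 1.41 in the centre, and 2.82 and 2.99 at IVDS3, with IVDS2 and the periphery between -0.39 and -0.01. It rose by 3.77 ± 0.21 at IVDS3 (13.6-fold, adjusted p = 3.35e-06) and by 1.92 ± 0.21 in the centre (adjusted p = 0.000365). SLC15A1, the peptide carrier of the gut, read 1.14 and 1.10 at IVDS3 and between -0.31 and 0.12 on the other arrays, a rise of 1.06 ± 0.11 over ES cells (adjusted p = 7.97e-05).

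SLC15A3, a peptide and histidine carrier of lysosomes, and SLC25A28, an iron carrier of mitochondria, are both known to be induced by interferon. Both were listed as such with earlier results of these data known, so their rises add no independent support. SLC15A3 read 1.99 and 2.53 at IVDS3 and at most 0.57 elsewhere, and rose by 1.95 ± 0.29 (adjusted p = 0.000499). SLC25A28 read 1.00 and 1.11 at IVDS3 and at most 0.31 elsewhere, and rose by 1.37 ± 0.13 (adjusted p = 3.82e-05). Of 10 measured interferon response markers 10 rose at IVDS3, with a list mean of 4.99 and 4.90 on its arrays against -0.33 and -0.14 in ES cells. In the centre this list mean was 1.23 on replicate 1 and 2.98 on replicate 2. SLC15A3 was also higher on replicate 2, with -0.35 on centre replicate 1 and 0.57 on replicate 2. Against ES cells it was not higher in the centre (-0.20 ± 0.29, not called), although the list mean was. The part of the interferon markers in these results was not tested.

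Glutamate carriers split by subtype. SLC1A3 read -0.51 and -0.91 in ES cells, -0.31 and -0.34 in the periphery, 1.15 and 1.74 in the centre, and 1.38 and 1.36 at IVDS3. It rose by 2.08 ± 0.19 at IVDS3 (adjusted p = 3.68e-05) and by 2.15 ± 0.19 in the centre (adjusted p = 0.000144), or by 3.27 and 3.30 with the more variable of its 2 probe sets. SLC1A2 read -1.28 and -0.90 in ES cells, 0.57 and 0.91 in the periphery, 0.47 and 0.81 in the centre, and 0.04 and -0.04 at IVDS3. Unlike SLC1A3, its arrays of centre and periphery overlapped. It rose by 1.83 ± 0.17 in the periphery (adjusted p = 0.000911) and by 1.09 ± 0.17 at IVDS3 (adjusted p = 0.000819). SLC1A6, a carrier of cerebellar neurons, fell by 1.11 ± 0.13 at IVDS3 (adjusted p = 0.000141).

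Among sodium- and chloride-coupled carriers of the SLC6 family, 2 falls held in the 15 settings. The creatine carrier SLC6A8 read 0.66 and 0.53 in ES cells, -0.50 and -0.69 in the centre, and -1.42 and -1.13 at IVDS3. It fell by 1.87 ± 0.13 on the log2 scale at IVDS3 (adjusted p = 1.05e-05), and the taurine carrier SLC6A6 fell by 0.99 ± 0.14 (adjusted p = 0.000426, 1.55 with its most variable probe set). In all 6 of 14 measured SLC6 genes fell there, but 2 did so without ES replicate 2 or IVDS3 replicate 2, and 3 in the replicate block fit or with each array centred, beside 28.6% of all genes lower. SLC36A4, a proton-independent amino acid carrier, read -1.31 and -1.29 at IVDS3 and at least -0.12 on all other arrays, a fall of 1.22 ± 0.14 (adjusted p = 0.000101). SLC7A4, a relative of the cationic carriers, rose by 1.86 ± 0.35 (adjusted p = 0.00189).

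Among the glucose families the largest difference at IVDS3 was a fall of 1.31. SLC2A3, the high-affinity glucose carrier of neurons and early embryos, read -0.13 and 0.07 in ES cells, 0.65 and 0.94 at IVDS2, 0.27 and 0.19 in the centre, -0.29 and -0.10 in the periphery, and -0.97 and -0.53 at IVDS3. The IVDS2 arrays were the highest and the IVDS3 arrays the lowest of all. It fell by 1.54 ± 0.17 on the log2 scale from IVDS2 to IVDS3 (adjusted p = 0.000152). Neither the centre nor the periphery was called against ES cells for this gene. Against ES cells the differences were 0.82 ± 0.17 at IVDS2, lost without ES replicate 1 (adjusted p = 0.0523) or IVDS2 replicate 2 (0.104), and -0.72 ± 0.17 at IVDS3, lost without IVDS3 replicate 1 (0.0582).

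SLC2A1, the glucose carrier of most dividing cells, read -0.25 and -0.29 in ES cells and -0.02 and 0.56 at IVDS3. Its difference of 0.54 ± 0.20 did not pass the test (adjusted p = 0.0526), but did without IVDS3 replicate 1 (0.0137), in the replicate block fit (0.0165) or with each array centred (0.041). SLC2A10 read 0.47 and 0.29 in ES cells, 0.47 on each periphery array, and -0.87 and -0.99 at IVDS3, a fall of 1.31 ± 0.16 (adjusted p = 0.00014). SLC2A11 rose by 0.79 ± 0.16 (adjusted p = 0.00343). In all 4 of 17 genes of the glucose families rose and 2 fell at IVDS3, beside 21.1% and 28.6% of all genes. There were 2 rises without IVDS3 replicate 2, 5 falls without ES replicate 1, and 1 fall without IVDS3 replicate 1. The proton-coupled inositol carrier SLC2A13 (0.56 ± 0.15), SLC50A1 (0.54 ± 0.13) and the choline carrier SLC5A7 (0.53 ± 0.18) were among the rises. Their calls were lost without IVDS3 replicate 2 for SLC2A13 (adjusted p = 0.0822) and SLC50A1 (0.0508), and without ES replicate 2 for SLC2A13 (0.0692) and SLC5A7 (0.179), or IVDS3 replicate 1 for SLC5A7 (0.207). The gut and kidney carrier SLC5A1 differed by -0.08 ± 0.11.

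Of 15 measured genes of glycolysis, the pathway that uses the glucose taken up, 9 fell at IVDS3, beside 28.6% of all genes. The list had a median difference of -0.86, and a mean of 0.28 and 0.30 in ES cells against -0.45 and -0.40 at IVDS3. When each gene was read by its most variable probe set, 2 were called higher, and without ES replicate 1, 1 was. HK2, which traps glucose in the cell, fell by 2.02 ± 0.22 (adjusted p = 8.72e-05), GAPDH by 1.97 ± 0.12 (adjusted p = 4.01e-06) and ENO1 by 1.16 ± 0.11 (adjusted p = 4.44e-05).

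SLC16A1, which moves lactate and pyruvate with protons, was lowest at IVDS3. It read 0.79 and 0.50 in ES cells, 0.28 and 0.45 at IVDS2, 0.05 and -0.04 in the periphery, -0.27 and -0.37 in the centre, and -1.82 and -1.17 at IVDS3. Each of these groups lay below the one named before it without overlap. It fell by 2.14 ± 0.20 on the log2 scale at IVDS3 (4.4-fold, adjusted p = 3.76e-05) and by 0.97 ± 0.20 in the centre (adjusted p = 0.00702). The lactate exporter SLC16A3 differed by 0.02 ± 0.17 at IVDS3. BSG, the chaperone that brings both to the cell surface, differed by -0.51 ± 0.19 (adjusted p = 0.0562), and was called lower without either IVDS2 array (0.0314) or either IVDS2-P array (0.0423), in the replicate block fit (0.0243), and with its most variable probe set (-1.27). Of the 4 measured partner subunits of carriers 2 rose, ATP1B1 (0.82 ± 0.21) and CLTRN (1.26 ± 0.30). Without ES replicate 2, 0 did in limma, with 2 at an unadjusted p under 0.05, and 1 did without either IVDS3 array.

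Of the same family, SLC16A10 carries aromatic amino acids and thyroid hormone. It read 1.77 and 1.97 in ES cells, between -0.10 and 0.11 on the 6 arrays of stage 2, and -1.29 on each array of IVDS3. It was lower in all differentiated groups, by 3.16 ± 0.11 at IVDS3 (8.95-fold, adjusted p = 2.97e-07), 1.91 ± 0.11 at IVDS2 (adjusted p = 6.14e-05) and 1.80 ± 0.11 in the periphery (adjusted p = 0.000223) as falls on the log2 scale. The sulfate carrier SLC13A4 read -0.60 and -0.34 in ES cells, 1.13 and 1.34 at IVDS2, and -1.16 and -1.63 at IVDS3. It rose by 1.71 ± 0.22 at IVDS2 (adjusted p = 0.00146) and fell by 2.63 ± 0.22 from there to IVDS3 (adjusted p = 3.09e-05). Against ES cells it was also called higher in the periphery, though not in all 15 settings, and was not called in the centre. Its difference of -0.92 ± 0.22 between IVDS3 and ES cells was lost without IVDS3 replicate 2 (adjusted p = 0.0581).

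Of the 8 rises among organic anion families at IVDS3, 4 were in SLC22, 2 in SLC10 and 2 in SLC16. The SLC22 rises were among 10 measured genes, in a comparison where 21.1% of all genes rose. The carnitine carrier SLC22A5 read -0.60 and -0.30 in ES cells, 0.31 and 0.87 in the centre and 1.04 on each IVDS3 array, a rise of 1.49 ± 0.18 (adjusted p = 0.000139). Its 2 probe sets disagreed, at -0.51 and 3.49. SLC22A18 rose by 1.25 ± 0.17 (adjusted p = 0.000266) and SLC22A23 by 1.17 ± 0.18 (adjusted p = 0.000711), the latter from 3 probe sets between -0.05 and 3.53. SLC10A7 read -0.53 and -0.99 in ES cells and 0.99 and 0.95 at IVDS3, a rise of 1.73 ± 0.17 (adjusted p = 5.79e-05). In the organic anion families as a whole 8 of 34 rose and 6 fell, or 10 without ES replicate 1. Of 6 measured SLCO genes, the other main family of organic anion carriers, 3 rose and 2 fell, beside 21.1% and 28.6% of all genes. The calls that held without each array were SLCO4C1 (0.80 ± 0.17, adjusted p = 0.00434), SLCO2B1 (0.71 ± 0.13, adjusted p = 0.00185, 1.76 with its most variable probe set) and the fall of SLCO4A1 (-0.79 ± 0.12, adjusted p = 0.000678). The falls were 1 without ES replicate 2 or either IVDS3 array.

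**Figure D4:**
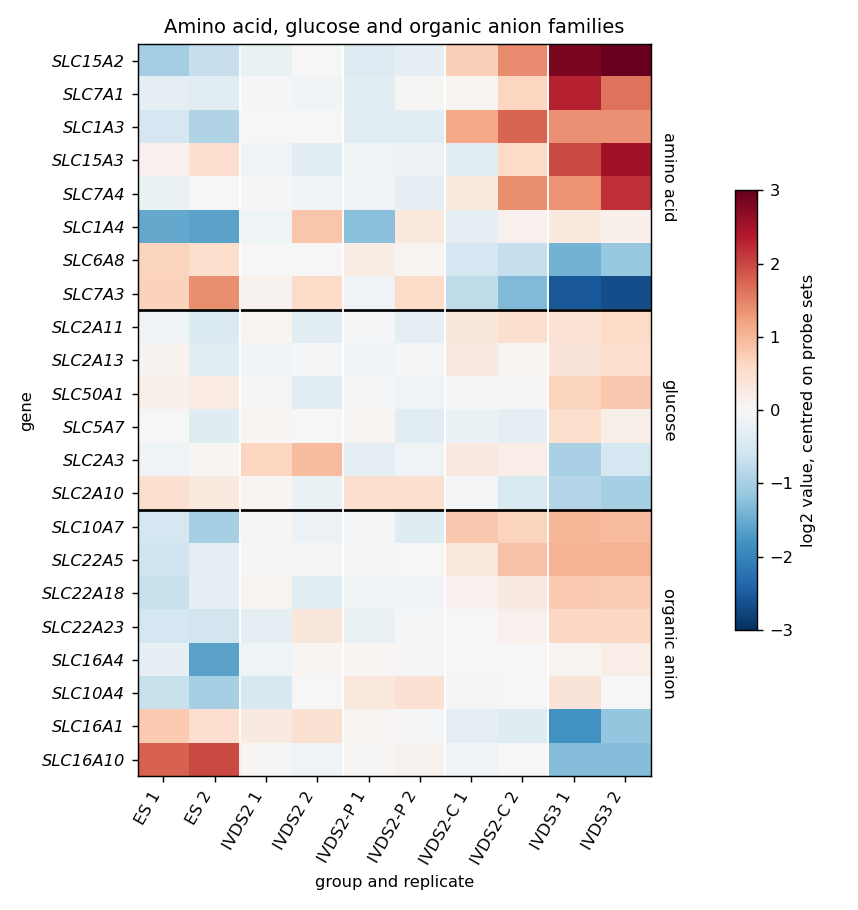
Centred log2 values on the 10 arrays of the called amino acid, glucose and organic anion carriers with the largest changes at IVDS3, up to 8 per class. Colours run from -3 (blue) to 3 (red), and the glucose carriers show the palest colours of the 3 classes.

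Of 6 measured fatty acid carriers of the SLC27 family 3 rose and 1 fell at IVDS3, beside 21.1% and 28.6% of all genes. SLC27A2, which takes up very long-chain fatty acids and links them to coenzyme A in liver and kidney, read -1.88 and -1.58 in ES cells, 0.12 and -0.12 at IVDS2, -1.17 and -1.04 in the periphery, 0.68 and 1.54 in the centre, and 2.05 and 2.55 at IVDS3. The 5 groups did not overlap. It rose by 4.04 ± 0.27 at IVDS3 (16.4-fold, adjusted p = 7.37e-06), by 2.84 ± 0.27 in the centre (adjusted p = 0.000194) and by 1.73 ± 0.27 at IVDS2 (adjusted p = 0.00393). Its relative SLC27A6 was high at IVDS3 alone among the groups, with 3.81 and 2.81 there and at most 0.66 elsewhere, a rise of 3.39 ± 0.29 (adjusted p = 2.37e-05). SLC27A5, the bile acid and fatty acid ligase of hepatocytes, fell by 0.69 ± 0.14 (adjusted p = 0.0025).

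Of the 4 measured choline-like transporters of the SLC44 family 3 rose at IVDS3, where 21.1% of all genes rose. SLC44A3 read -0.97 and -0.12 in ES cells, 0.60 and 1.15 in the centre, and 2.14 on each IVDS3 array, a rise of 2.69 ± 0.30 (adjusted p = 0.000103). SLC44A2 read -1.14 and -0.82 in ES cells and 1.18 on each IVDS3 array, a rise of 2.16 ± 0.15 (adjusted p = 8.05e-06). SLC44A5 rose by 0.66 ± 0.13 (adjusted p = 0.00257), while SLC44A4 differed by -0.41 ± 0.19 and was called lower without ES replicate 1 (0.00508). The thiamine carrier SLC19A3 read -1.02 and -0.76 in ES cells, -1.0 and -0.95 in the periphery, 0.84 and 1.16 in the centre, and 0.89 and 1.05 at IVDS3. Its periphery arrays overlapped those of ES cells and its centre arrays those of IVDS3, with a rise of 1.85 ± 0.14 at IVDS3 (adjusted p = 1.42e-05) and 1.89 ± 0.14 in the centre (adjusted p = 6.66e-05). The lysosomal SLC46A3 read 2.36 and 2.29 at IVDS3 and at most 0.46 elsewhere, a rise of 2.32 ± 0.19 (adjusted p = 1.92e-05).

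Of 34 carriers of the mitochondrial family 12 fell and 6 rose at IVDS3 (2 without IVDS3 replicate 1), in a comparison where 28.6% of all genes fell and 21.1% rose. SLC25A21, which carries oxoadipate from lysine and tryptophan breakdown, read 1.13 and -0.01 in ES cells, between -0.17 and 0.44 at stage 2, and -2.33 and -2.14 at IVDS3. It fell by 2.79 ± 0.32 on the log2 scale (adjusted p = 0.000122), with the IVDS3 arrays far below the rest. The pyrimidine nucleotide carrier SLC25A33 read -1.46 and -1.44 at IVDS3 and at least -0.08 elsewhere, a fall of 1.66 ± 0.10 (adjusted p = 3.35e-06). SLC25A39, which supplies mitochondria with glutathione, read 0.64 and 0.73 in ES cells and -1.03 and -0.90 at IVDS3, a fall of 1.65 ± 0.13 (adjusted p = 1.48e-05). The glutamate carrier SLC25A18 was lower in every differentiated group, with 1.17 and 1.57 in ES cells and between -0.51 and 0.30 on the other 8 arrays. Of the common ADP and ATP exchangers, SLC25A5 fell by 0.69 ± 0.15 (adjusted p = 0.00472), while SLC25A4 differed by 0.26 ± 0.10 (adjusted p = 0.0517) and was called higher without ES replicate 1 (0.0453) or with each array centred (0.0263).

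Urea cycle carriers of the same family fell too. SLC25A13, which exports aspartate, differed by -0.94 ± 0.17 (adjusted p = 0.00166) and SLC25A15, the ornithine carrier, by -0.95 ± 0.19 (adjusted p = 0.00262). Both belong to a list of 25 SLC genes known for roles in hepatocytes, of which 14 were measured. At IVDS3, 7 of these 14 fell and 1 rose, SLC27A2 (2 rose without ES replicate 1 or in the replicate block fit). Over all genes 28.6% fell and 21.1% rose there. The falls on the list included SLC39A14, SLC7A2, SLC27A5 and SLC37A4, the glucose-6-phosphate carrier of gluconeogenesis (-0.55 ± 0.14, adjusted p = 0.00839). The citrate carrier SLC13A5 (-0.17 ± 0.15) and the organic anion carrier SLC22A7 (-0.15 ± 0.11) were not called. The bile acid carrier SLC10A1 and the glucose carrier SLC2A2 were not analysed here. Of 10 measured hepatoblast markers 1 rose, DLK1 (1.83 ± 0.36), and 4 fell, with 2 falls without ES replicate 1 or IVDS3 replicate 1.

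A list of carriers of surface epithelia had 12 measured genes, of which 3 rose and 1 fell at IVDS3, or 3 fell without ES replicate 1. The rises were SLC15A2, the fatty acid carrier SLC27A4 (0.55 ± 0.12, adjusted p = 0.00376) and the bicarbonate carrier SLC4A4 (0.41 ± 0.11, adjusted p = 0.0111), the last lost without IVDS3 replicate 1 (0.0899) and 0.66 with its most variable probe set. The phosphate carrier SLC34A2 differed by 0.23 ± 0.11, or by 0.44 and called with its most variable probe set. All 9 measured epidermal and mucosal markers rose at the same time, with a list mean of 4.00 and 3.81 at IVDS3 against -0.80 on each ES array. Their part in the carrier results was not tested.

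Of 14 measured carriers known from neurons and glia, SLC1A2 and SLC1A3 rose at IVDS3 and 4 fell, where 28.6% of all genes fell. The falls were 8 without ES replicate 1, 1 without ES replicate 2, 2 without IVDS3 replicate 1, and 0 without IVDS3 replicate 2 (4 at an unadjusted p under 0.05 in limma). The carrier of noradrenaline, SLC6A2, differed by -0.12 ± 0.16. Those of dopamine (SLC6A3, -0.31 ± 0.14) and vesicular glutamate (SLC17A7, -0.32 ± 0.17) were not called either, except as lower without ES replicate 1 (adjusted p = 0.0188 and 0.0292). The mean of 7 neural markers was -1.28 and -1.83 in ES cells, 0.21 and 0.63 in the periphery, and -0.28 and -0.46 at IVDS3. Of these 7 markers 4 rose at IVDS3 and 1 fell, beside 21.1% and 28.6% of all genes. The fall was lost with each array centred.

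The largest differences among ion carriers at IVDS3 were 2 rises. The sodium and proton exchanger SLC9A5 read -2.39 and -2.71 in ES cells, 0.86 and 0.53 at IVDS2, 0.71 and 0.46 in the centre, -1.21 and -0.34 in the periphery, and 0.10 and -0.10 at IVDS3. It rose by 3.24 ± 0.26 at IVDS2 (9.47-fold, adjusted p = 0.000223), 3.13 ± 0.26 in the centre (adjusted p = 0.000106), 1.78 ± 0.26 in the periphery (adjusted p = 0.00403) and 2.55 ± 0.26 at IVDS3 (adjusted p = 6.32e-05). SLC24A3, which trades sodium for calcium and potassium, read -2.08 and -1.95 in ES cells, 0.65 and 1.34 in the centre, and 1.18 and 1.19 at IVDS3. It rose by 3.20 ± 0.43 at IVDS3 (adjusted p = 0.000287) and 3.01 ± 0.43 in the centre (adjusted p = 0.00118). Its IVDS2 arrays, -0.76 and 0.37, lay apart by more than those of the groups just named. SLC12A1, the salt carrier of the kidney, fell by 1.13 ± 0.20 at IVDS3 (adjusted p = 0.00152), or by 2.24 with the more variable of its 2 probe sets.

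Some carriers that load the Golgi with nucleotide sugars and sulfate rose at IVDS3. Those given here were named after their values were seen, and most SLC35 genes did not rise. SLC35A3, for UDP-N-acetylglucosamine, rose by 1.66 ± 0.16 (adjusted p = 4.58e-05), SLC35A1, for CMP-sialic acid, by 1.43 ± 0.17 (adjusted p = 0.000152), and SLC35B3, for the sulfate donor PAPS, by 1.62 ± 0.18 (adjusted p = 9.64e-05). SLC35F5 had the largest change of its family, from -0.81 and -0.80 in ES cells to 2.06 and 1.96 at IVDS3 (2.81 ± 0.24, adjusted p = 2.34e-05). SLC35F2 (-1.91 ± 0.20, adjusted p = 7.2e-05) and SLC35G2 (-1.72 ± 0.15, adjusted p = 2.6e-05) fell. In all 6 of 21 SLC35 genes rose and 3 fell, beside 21.1% and 28.6% of all genes. The nucleoside carrier SLC28A3 rose by 1.33 ± 0.23 (adjusted p = 0.00115). Among other families, the vesicular polyamine carrier SLC18B1 rose by 1.48 ± 0.25 (adjusted p = 0.00111) and the drug and cation exporter SLC47A1 fell by 1.81 ± 0.20 (adjusted p = 9.9e-05).

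Against ES cells, 5 SLC genes were called higher and 9 lower in all 4 differentiated groups, which share the same 2 ES arrays. Calls that held in the same 15 settings in all 4 were those of SLC9A5, which rose, and of SLC16A10, SLC25A18 and SLC7A7, which fell. SLC7A7, a subunit that exchanges cationic for neutral amino acids, read 1.18 and 1.47 in ES cells and between -0.37 and 0.06 on the other 8 arrays. It fell by 1.67 ± 0.13 on the log2 scale at IVDS3 (adjusted p = 1.36e-05) and by 1.39 ± 0.13 in the periphery (adjusted p = 0.000817). Calls at IVDS3 and in no other group numbered 52, and 105 of the 255 genes were called in none of the 6 comparisons. These patterns, and calls in all 4 groups, were not counted over all genes. No background thus stands beside them, and they cannot be read as particular to carriers.

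The comparison of colony centre and periphery asks whether carriers differ by place in the colony, as the series title speaks of topology. The centre was higher for 22 SLC genes and lower for 9 (8.63% and 3.53%, beside 5.64% and 3.95% of all genes). The 22 became 7 when IVDS2-C replicate 2 was left out, and 5 or 13 when replicate 1 or 2 of IVDS2-P was. The 9 were 1 without either periphery array and 0 without IVDS2-C replicate 2, where limma had 9 at an unadjusted p under 0.05. The 4 calls that held in the 15 settings were higher in the centre. They were SLC39A8 (3.18 ± 0.34, 9.08-fold, adjusted p = 0.00127), SLC27A2 (2.21 ± 0.27, adjusted p = 0.00213), SLC19A3 (1.97 ± 0.14, adjusted p = 0.000252) and SLC1A3 (1.77 ± 0.19, adjusted p = 0.00127). For SLC39A8 and SLC27A2 the IVDS2 arrays lay between those of centre and periphery.

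Other differences between centre and periphery depended on 1 array or more. SLC40A1 was higher in the centre by 1.57 ± 0.27 (adjusted p = 0.00845), but passed the test neither without IVDS2-C replicate 2 (0.0689) nor without IVDS2-P replicate 1 (0.0619). SLC15A2 was higher by 1.38 ± 0.21 (adjusted p = 0.00565), lost without IVDS2-P replicate 1 (0.0535). SLC7A3 differed by -1.29 ± 0.30 (adjusted p = 0.0324), lost without IVDS2-C replicate 2 (0.247), IVDS2-P replicate 2 (0.166) or either IVDS3 array (0.0571). SLC39A14 differed by -1.17 ± 0.24 (adjusted p = 0.0205), lost without IVDS2-C replicate 2 (0.159), IVDS2-P replicate 1 (0.133) or IVDS2-P replicate 2 (0.0543). The arrays of these genes did not overlap between the 2 areas, but that adds no support to the calls. The naming rule required it of SLC7A3 and SLC39A14 in this comparison.

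**Figure D5:**
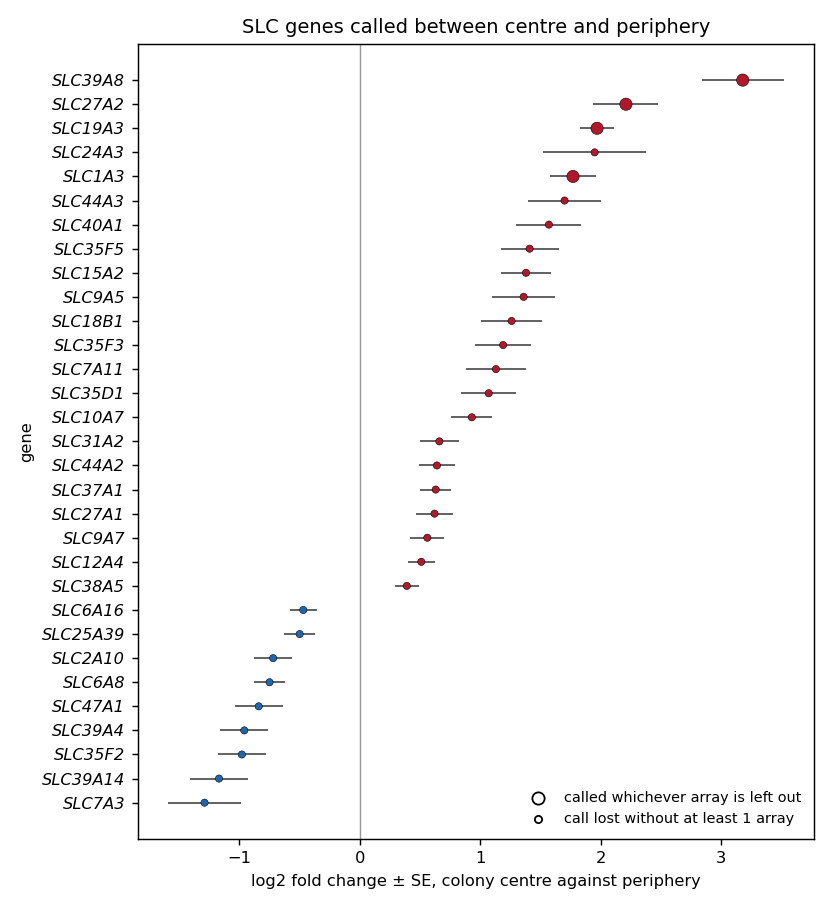
Log2 fold change ± SE, colony centre against periphery (2 arrays each), of the 31 SLC genes called in that comparison. Large points are the 4 genes whose call did not depend on any array left out, from SLC39A8 at 3.18 to SLC1A3 at 1.77.

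Markers of several cell types moved along the same axis. Between centre and periphery 5 of 8 pluripotent cell markers were lower in the centre (1 or 2 when replicate 1 or 2 of IVDS2-P was left out, 3 without IVDS2-C replicate 2 or either IVDS3 array). Over all genes 5.64% were higher in the centre and 3.95% lower. Markers higher in the centre were 6 of 8 trophoblast, 4 of 9 epidermal and 6 of 10 interferon response markers. The last count was 2 without IVDS2-P replicate 1 and 0 with only the 4 arrays compared, where limma had 7 at an unadjusted p under 0.05. The mean of the pluripotent list was 0.76 and 0.60 in the periphery against -0.27 and -1.25 in the centre, and that of the trophoblast list -1.20 and -0.98 against 0.74 and 0.88. Fibroblast markers averaged -0.22 and -0.21 in the periphery, 0.38 and 0.34 in the centre, and 1.56 and 1.33 at IVDS3. They did not all move together. Of the 10 measured, 6 rose and 2 fell at IVDS3 against ES cells, beside 21.1% and 28.6% of all genes. THY1 was called lower in the centre than in the periphery, a call lost with only the 4 arrays compared. Because all values are centred, none of these lists can be said to be at or near 0 in a group, and their part in the carrier results was not tested.

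Between IVDS2 and IVDS3 the SLC genes with the largest rises were SLC27A6 (3.40 ± 0.29, adjusted p = 3.65e-05), SLC40A1 (3.38 ± 0.27, adjusted p = 2.53e-05), SLC15A2 (3.00 ± 0.21, adjusted p = 1.57e-05), SLC15A3 (2.49 ± 0.29, adjusted p = 0.000195), SLC27A2 (2.30 ± 0.27, adjusted p = 0.000214) and SLC46A3 (2.30 ± 0.19, adjusted p = 3.05e-05). The largest falls were those of SLC7A3 (-2.94 ± 0.30, adjusted p = 0.000107), SLC13A4, SLC25A21 (-2.34 ± 0.32, adjusted p = 0.000522), SLC7A11, SLC39A14 (-1.86 ± 0.24, adjusted p = 0.000381) and SLC16A1 (-1.86 ± 0.20, adjusted p = 0.000134). These 12 calls held without each array in turn. SLC39A8, by contrast, differed by 0.89 ± 0.34 between the stages and was not called (adjusted p = 0.069), though it was without IVDS2 replicate 1 (1.45, adjusted p = 0.0065). SLC9A5 differed by -0.69 ± 0.26 (adjusted p = 0.0624), a difference called without either IVDS2-P array (0.0155).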

How the data were processed

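Total RNA of 10 samples of the macaque line ORMES6 was read on Affymetrix rhesus arrays. The deposited log2 values were made with RMA, per the submitters' processing notes, with no version given in the sources used here. The log base was inferred from the values, whose median over the 10 arrays is 0 for each probe set (tolerance 1e-05). Probe set names came from the platform annotation. Of 44210 tested probe sets, after 84 controls were left out, 22802 named 1 gene, 316 several and 21092 none. Probe sets naming the same gene were averaged. Of the 255 SLC genes, 254 were matched to RefSeq with the same symbol, and 150 had 1 probe set. SLC67A1-AS and SLC7A6OS overlap other genes, and array probes for close paralogs can share signal.

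The 5 groups were fitted together with lmFit and eBayes (limma 3.58.1 under R 4.3.3; residual degrees of freedom 5, prior 3.94), and p-values were adjusted over 13191 genes within each comparison. In simulated data for IVDS3 against ES cells over 13191 genes, 100 genes were changed 2-fold and 100 were changed 4-fold. Noise was independent and normal, with the same spread in all groups for a gene. Of the changed genes 74% and 94% were recovered, with 1.75% of calls false. In the real data far more genes were called and the ES repeats lay further apart, so these rates need not hold there. Other settings were a replicate block, each array left out in turn, each array centred, a fit of only the 4 arrays compared, the most variable probe set of a gene, a robust variance prior, a change of at least 2-fold, and only genes ranging over at least 1.

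The lists, the classes and the rule for naming genes were chosen with earlier results of these data known. The members were taken by symbol alone. Genes were named by rule: the 6 largest rises and falls per comparison with non-overlapping arrays, the 8 called amino acid, glucose and organic anion carriers with the largest change at IVDS3, the largest change of each family of 3 or more genes, the members of the lists, and up to 4 genes of each list of other genes. Not every gene that met the rule is described, and SLC38A6, SLC4A11 and SLC37A1 are among those left out. SLC30A2, SLC31A2, SLC15A1, SLC15A4, SLC6A6, SLC36A4, SLC25A33, SLC25A39, SLC44A2, SLC44A5, SLC28A3, SLC35A1, SLC35A3, SLC35B3 and, beyond 4 per list, SLCO and marker genes were named after their values were seen. Promoter and protein sequences were not used here.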

Additional observations from a re-analysis of the deposited data

Results flagged for a closer look

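SLC13A4, the sulfate carrier, was called in opposite directions against ES cells, higher in the IVDS2 arrays (1.71 ± 0.22) and lower at IVDS3 (-0.92 ± 0.22). Of the other stage 2 groups, the periphery was called higher, though not in all 15 settings, and the centre was not called. The direct comparison of IVDS3 with IVDS2 gave -2.63 ± 0.22 (limma adjusted p = 3.09e-05), with no overlap of arrays, as the naming rule required. The call at IVDS3 was lost without IVDS3 replicate 2 (adjusted p = 0.0581).

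SLC2A3, a glucose carrier, was also called higher in the IVDS2 arrays (0.82 ± 0.17) and lower at IVDS3 (-0.72 ± 0.17). It was called in neither the colony centre nor the periphery against ES cells. The direct comparison gave -1.54 ± 0.17 (limma adjusted p = 0.000152), again with no overlap of arrays. Both calls against ES cells were lost without 1 array, at IVDS2 without ES replicate 1 (0.0523) or IVDS2 replicate 2 (0.104) and at IVDS3 without IVDS3 replicate 1 (0.0582).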

How the results depend on the processing

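Among the genes named by rule no called value changed sign. SLC44A2, named after its values were seen, was called higher at IVDS2 (1.06) but differed by -0.17 with its most variable probe set (adjusted p = 0.613). Leaving out 1 array at a time, SLC genes called higher and lower ranged over 9 to 29 and 7 to 17 at IVDS2, 27 to 50 and 14 to 44 in the centre, 2 to 25 and 4 to 31 in the periphery, 54 to 69 and 42 to 80 at IVDS3, 5 to 26 and 0 to 10 for centre against periphery, and 30 to 53 and 27 to 57 for IVDS3 against IVDS2. With only the 4 arrays compared, the counts became 16 and 8 at IVDS2, 20 lower in the centre, 7 and 6 in the periphery, and 11 and 3 for centre against periphery, as fewer arrays entered each fit. In the periphery 9 were lower with each array centred, with the most variable probe set, and with genes ranging over at least 1. That last setting, which tests fewer genes, gave 20 lower in the centre and 31 at IVDS3. Requiring a 2-fold change left, in the order of the ranges above, 11 and 5, 23 and 11, 5 and 4, 38 and 21, 14 and 2, and 23 and 19.

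With the replicate number as a block, 66 were higher and 58 lower at IVDS3, and every count over the SLC genes stayed within 1.5 times. Deviations of same-numbered arrays correlated between -0.212 and 0.277 over the pairs of groups, not all above 0.1, so the numbers were not taken to pair the samples. Centring each array moved the median of all genes by at most 0.061. The centred values give no signal over background, so a gene near background cannot be told from one that did not change.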

Other observations

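SLC25A34, a mitochondrial carrier named after its values were seen, read -1.0 and -0.56 in ES cells, 1.08 and 0.61 at IVDS2, 0.73 and 0.38 in the colony centre, -0.33 and 0.33 in the periphery, and -0.66 and -0.36 at IVDS3. It rose by 1.63 ± 0.26 at IVDS2 (limma adjusted p = 0.00443) and fell by 1.35 ± 0.26 on the log2 scale from there to IVDS3 (adjusted p = 0.0032), while IVDS3 and ES arrays overlapped. The polyamine carrier SLC18B1 was higher than in ES cells by 2.07 ± 0.25 at IVDS2 (adjusted p = 0.00122), by 1.45 ± 0.25 in the centre (adjusted p = 0.00297) and by 1.48 ± 0.25 at IVDS3 (adjusted p = 0.00111), and differed by 0.19 ± 0.25 in the periphery.

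Over the 10 arrays, the median SLC gene ranged over 0.78 on the log2 scale, 58 of 255 ranged over less than 0.5, and the widest range was 4.87. Probe sets of a gene differed in direction by more than 0.5 each way at IVDS3 for 4 of 105 genes with several probe sets. For SLC22A5 the probe sets ran from -0.51 to 3.49, for SLC30A4 from -0.76 to 1.94, for SLC45A2 from -0.53 to 1.46 and for SLC4A7 from -1.79 to 0.87.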
